A study of Mus musculus with 9 samples.

Results

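NRF2, the transcription factor encoded by Nfe2l2, its inhibitor Keap1 and 8 of its classical target genes were followed through a kidney RNA-seq table. The targets were Nqo1, Hmox1, Gclc, Gclm, Txnrd1, Srxn1, G6pdx and Gsr. The 10 genes were taken by symbol from the 32593 genes of the deposited table, each symbol matched 1 row, and all 10 passed the filter on low values that left 12507 genes for testing. The glutathione transferases, another group of NRF2 targets, were kept outside the 10 and are given as a list of their own.

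The libraries came from kidneys of mice given angiotensin II (AngII), which constricts vessels and raises blood pressure, in a study whose title concerns STING, ACSL4 and hypertension-associated kidney disease. Each of 3 genotype groups had 3 libraries. The group titled AngII had the genotype Tmemfl/fl with no Cre named. The group titled CDH16KO-AngII had CDH16 Cre+ with Tmemfl/fl, so that the name gives the Cre driver, a cadherin promoter active in kidney tubule epithelium, and not a deleted Cdh16 gene. The group titled GRPR-AngII had CDH16 Cre+ with GRPRfl/fl. All 3 groups received AngII. CDH16KO-AngII and AngII share the floxed allele, and between them the presence of Cre and the deletion it makes cannot be told apart. GRPR-AngII differs from AngII in both the Cre and the floxed allele, and these cannot be told apart either. The labels give no age, sex or dose.

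NRF2 is held in the cytoplasm by KEAP1, which presents it to a CUL3 ubiquitin ligase for degradation. Oxidants and electrophiles modify KEAP1, and NRF2 then accumulates, enters the nucleus and pairs with small MAF proteins on antioxidant response elements. Its targets make glutathione, reduce thioredoxin and peroxiredoxins, supply NADPH, reduce quinones and break down heme, and in the kidney much of this work is done in the proximal tubule. Because NRF2 is controlled mainly as a protein, the level of Nfe2l2 mRNA is not a measure of its activity.

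Library totals were 40731748 to 60449117 counts, and the 10 genes had 562 to 16088 counts in a library. For the floxed gene the labels give Tmem without a number, and Sting1, which had the older symbol Tmem173, was looked up because of the title. The AngII libraries had 4.62, 1.77 and 5.33 CPM of Sting1, those of CDH16KO-AngII 2.15, 2.24 and 2.04 CPM and those of GRPR-AngII 2.897, 2.895 and 2.68 CPM. The CDH16KO-AngII values lay inside the AngII range, because of AngII library 2 at 1.77 CPM, and below all GRPR-AngII values. The log2 fold change of Sting1 against AngII was −0.86 in CDH16KO-AngII (SE 0.36, unadjusted p = 0.0343, edgeR adjusted p = 0.604). In GRPR-AngII it was −0.45 (SE 0.35, edgeR adjusted p = 0.857), and neither was called. Which exons are floxed is not stated in the labels. The table held no row under the symbol Grpr, and that gene is not analysed here. The kidney identity of the libraries was clear in the proximal tubule markers, with Slc34a1 at 616 to 1115 FPKM and Miox at 793 to 1176 FPKM. Lymphocyte, urothelial and adrenal markers were low, and the adrenal gene Cyp11a1 was at 0 in 4 libraries. Whether the libraries of a group came from separate animals is not stated in the labels. The p-values below therefore set group differences against the spread between these libraries, which may not be a spread between animals. These are bulk samples, in which fewer cells of a type and less RNA per cell cannot be told apart.

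Promoter sequence from RefSeq (GRCm38.p6), from 250 bases before to 50 after an annotated start, was found for 7 of the 10 genes, in 9 promoters. The core of the antioxidant response element, TGACNNNGC on one strand or GCNNNGTCA on the other, was present in 5 of these promoters, 1 each for Nfe2l2, Gclm, Txnrd1, G6pdx and Srxn1. The same letters occurred in 4071 of all 32851 promoters of that length, 12.4%. Counted from the annotated start, the match began at base −240 in Nfe2l2, −134 in Gclm, −92 from the middle one of 3 annotated starts of Txnrd1, −57 in G6pdx and 29 in Srxn1. The bases just after the RefSeq start of Nfe2l2 lay outside the gene as deposited (chr2:75675513-75704641), so its −240 rests on that RefSeq start alone. Keap1 and Nqo1 had no match in this window. A match is a description of the letters and not of a bound site, and a window without one says nothing about elements farther upstream. The stretches are shown for Gclm, Txnrd1 and Nfe2l2 because they hold the letters NRF2 is known to read, and for Nqo1 because it had the largest log2 fold change of the 10 in CDH16KO-AngII against AngII and no match in its window. They run 5′ to 3′ on the gene's strand, with the match in capitals.
Gclm, chr3:122245393-122245461, + strand: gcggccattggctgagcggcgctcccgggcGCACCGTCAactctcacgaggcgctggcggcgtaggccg
Txnrd1, chr10:82859084-82859152, + strand: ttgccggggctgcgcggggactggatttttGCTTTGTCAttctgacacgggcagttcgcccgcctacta
Nfe2l2, chr2:75704865-75704913, − strand: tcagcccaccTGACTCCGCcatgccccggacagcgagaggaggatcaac
Nqo1, chr8:107403207-107403306, − strand: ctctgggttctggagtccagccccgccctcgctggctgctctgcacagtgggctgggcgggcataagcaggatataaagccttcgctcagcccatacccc

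Across the 10 genes, the levels per length over all 9 libraries were highest for Gclc, with a mean of 42.7 FPKM, and lowest for Keap1, with 6.87 FPKM. Between them came Nqo1 at 27.9, Gclm at 27.5, Gsr at 26.7, Srxn1 at 17.6, Hmox1 at 14.9, Nfe2l2 at 13.6, Txnrd1 at 12.5 and G6pdx at 8.14 FPKM. The ranges over libraries of neighbours in this order overlapped, for example 11.8 to 42.5 FPKM for Nqo1 and 17.3 to 38.1 FPKM for Gclm. FPKM is the length- and depth-scaled fragment value of the deposited table. It is used here to compare genes, to filter low values, in the limma alternatives and for the ratio of Gclc to Gclm. Libraries are otherwise compared below by CPM, the count scaled to a common library size after TMM scaling.

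The regulators came first. Nfe2l2 (ENSMUSG00000015839, chr2:75675513-75704641, − strand) had 82.3, 74.6 and 61.3 CPM in AngII libraries 1 to 3. It stood at 47.5, 64.4 and 62.3 CPM in CDH16KO-AngII and at 54.6, 60.8 and 48.1 CPM in GRPR-AngII. All GRPR-AngII libraries lay below all AngII libraries, while CDH16KO-AngII libraries 2 and 3 overlapped the lowest AngII library. The log2 fold change against AngII was −0.42 in GRPR-AngII (SE 0.17, unadjusted p = 0.0296, edgeR adjusted p = 0.732) and −0.33 in CDH16KO-AngII (SE 0.17, edgeR adjusted p = 0.623), and neither passed the threshold of 0.05. Without CDH16KO-AngII library 1 the latter was −0.20. Between GRPR-AngII and CDH16KO-AngII it was −0.09 (SE 0.17).

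Keap1 (ENSMUSG00000003308, chr9:21229730-21239361, − strand), the substrate adaptor that holds NRF2 for degradation, was the steadiest of the 10. Its means were 38.7 ± 2.98 CPM in AngII, 38.2 ± 3.56 CPM in CDH16KO-AngII and 39.2 ± 2.30 CPM in GRPR-AngII (SD, n = 3). The 9 libraries spanned 35.1 to 42.1 CPM, and the 3 groups overlapped throughout. The log2 fold changes were −0.02, 0.02 and 0.04 in CDH16KO-AngII against AngII, GRPR-AngII against AngII and GRPR-AngII against CDH16KO-AngII (SE 0.12 each). An antisense gene, Gm16754, covers 10.9% of the exon bases of Keap1, and whether the counting used strand is not given, so reads of the pair cannot be told apart.

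**Figure D1:**
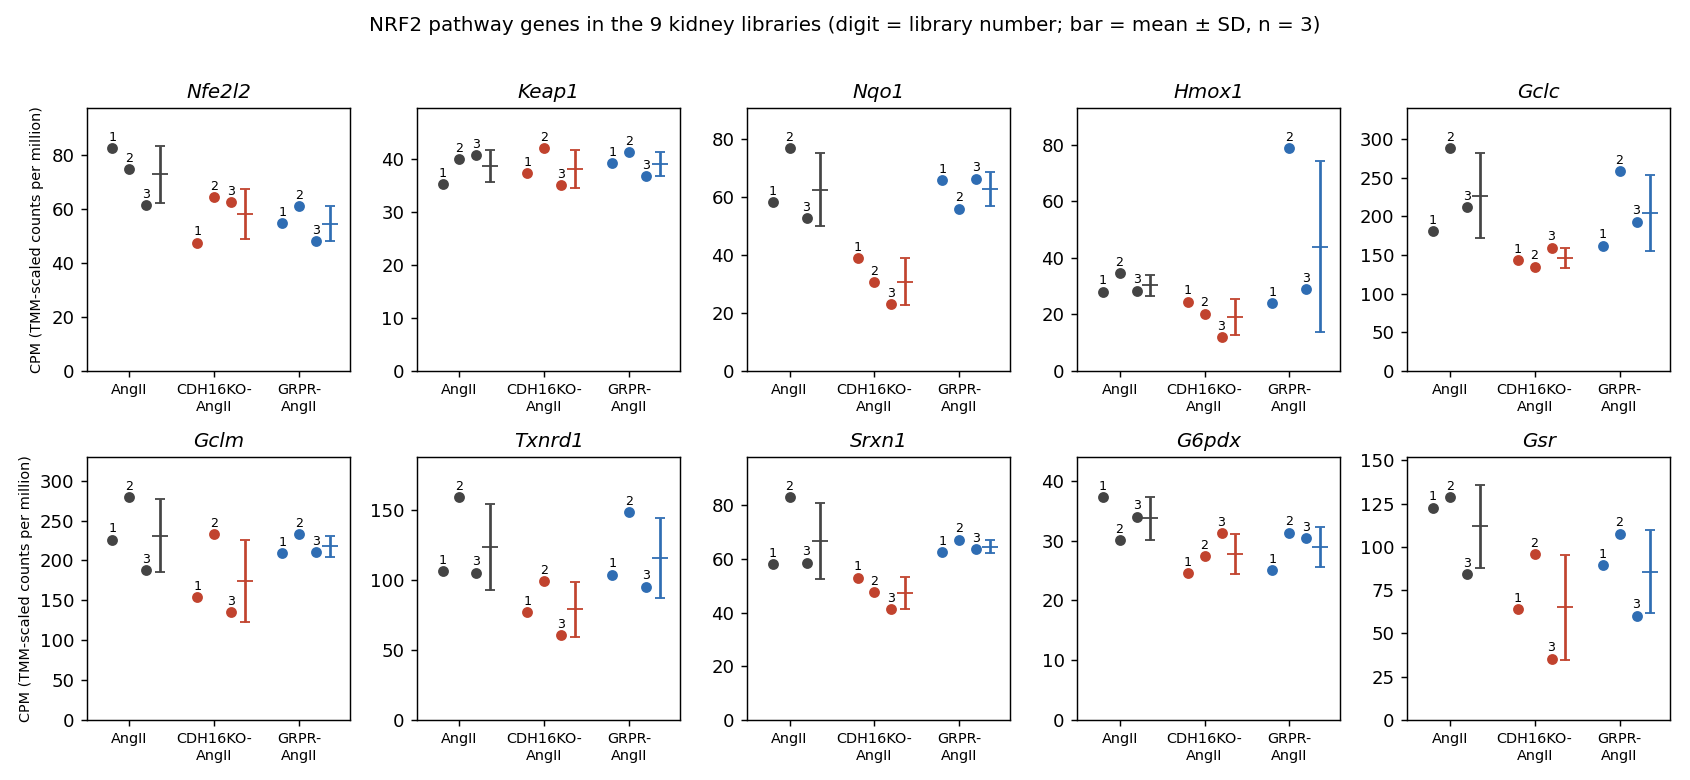
CPM (counts scaled to a common library size, TMM, y axis from 0) of the 10 genes in each library, with points numbered by library and the mean ± SD of the 3 libraries of each group beside them. Nqo1 and Srxn1 lie lower in all 3 CDH16KO-AngII libraries than in every other library, Keap1 is level, and 1 GRPR-AngII library holds the highest Hmox1 value.

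Nqo1 (ENSMUSG00000003849, chr8:107388225-107403206, − strand) encodes the quinone reductase most often read as a sign of NRF2 activity. Its level was 58.2, 76.9 and 52.8 CPM in AngII. It stood at 39.0, 30.5 and 22.9 CPM in CDH16KO-AngII and at 65.8, 56.0 and 66.4 CPM in GRPR-AngII. Every CDH16KO-AngII library was below every other library, and the AngII and GRPR-AngII libraries overlapped. The mean was 2.03-fold lower in CDH16KO-AngII than in AngII by the fit (log2 fold change −1.02, SE 0.21, unadjusted p = 0.000497), and the edgeR adjusted p of 0.116 missed the threshold. GRPR-AngII differed from CDH16KO-AngII by 1.03 on the log2 scale (SE 0.21, unadjusted p = 0.000488, edgeR adjusted p = 0.135), and from AngII by 0.00 (SE 0.20, edgeR adjusted p = 0.999). Without CDH16KO-AngII library 1 the gene was called in both comparisons with CDH16KO-AngII, with log2 fold changes of −1.23 (edgeR adjusted p = 0.0475) and 1.24 (edgeR adjusted p = 0.0422). No other left-out library gave a call. The smallest differences were −0.85 against AngII, without AngII library 2, and 0.85 for GRPR-AngII against CDH16KO-AngII, without CDH16KO-AngII library 3.

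Srxn1 (ENSMUSG00000032802, chr2:152105516-152109322, + strand), the sulfiredoxin that repairs overoxidised peroxiredoxins, followed Nqo1 most closely. It stood at 58.0, 82.9 and 58.6 CPM in AngII, at 53.0, 47.7 and 41.2 CPM in CDH16KO-AngII and at 62.5, 67.2 and 63.7 CPM in GRPR-AngII. The CDH16KO-AngII libraries were again below all 6 others. The log2 fold change was −0.49 against AngII (SE 0.16, unadjusted p = 0.0123, edgeR adjusted p = 0.426). Without AngII library 2, the highest of the 9, it was −0.30. GRPR-AngII against CDH16KO-AngII gave 0.45 (SE 0.16, unadjusted p = 0.0201, edgeR adjusted p = 0.612), and GRPR-AngII against AngII gave −0.05 (SE 0.16). Over the 9 libraries the Pearson correlation of Nqo1 and Srxn1 on the log2 scale was 0.933, the highest of the 45 pairs among the 10 genes. The points share libraries, depth and groups, and the value is a description.

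The thioredoxin and glutathione reductases use NADPH to return oxidised carriers to their reduced form. Txnrd1 (ENSMUSG00000020250, chr10:82833951-82897712, + strand), the cytosolic thioredoxin reductase, stood at 106, 159 and 105 CPM in AngII, at 77.1, 99.1 and 60.5 CPM in CDH16KO-AngII and at 104, 149 and 95.3 CPM in GRPR-AngII. Every CDH16KO-AngII library was below every AngII library, and the highest of them was above the lowest of GRPR-AngII. Its log2 fold change in CDH16KO-AngII against AngII was −0.65 (SE 0.24, unadjusted p = 0.0224, edgeR adjusted p = 0.510), and −0.42 without AngII library 2. Gsr (ENSMUSG00000031584, chr8:33652523-33698163, + strand), glutathione reductase, stood at 123, 129 and 84.2 CPM in AngII, at 64.1, 95.8 and 35.3 CPM in CDH16KO-AngII and at 89.2, 108 and 60.3 CPM in GRPR-AngII. Its groups overlapped, since CDH16KO-AngII library 2 was above AngII library 3. The log2 fold change against AngII was −0.78 with an SE of 0.33 (unadjusted p = 0.0405, edgeR adjusted p = 0.575). Leaving out CDH16KO-AngII library 3 gave −0.48, and leaving out library 2 of that group gave −1.17.

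Glutamate cysteine ligase, the rate-limiting enzyme of glutathione synthesis, is made of a pair of subunits. Gclc (ENSMUSG00000032350, chr9:77754535-77794485, + strand), the catalytic subunit, stood at 181, 288 and 212 CPM in AngII, at 143, 135 and 160 CPM in CDH16KO-AngII and at 162, 259 and 193 CPM in GRPR-AngII. The CDH16KO-AngII libraries were below all others, by a narrow gap of CDH16KO-AngII library 3 to GRPR-AngII library 1. The log2 fold change was −0.64 against AngII (SE 0.21, unadjusted p = 0.0125, edgeR adjusted p = 0.426). Gclm (ENSMUSG00000028124, chr3:122245557-122270732, + strand), the modifier subunit, stood at 226, 279 and 188 CPM in AngII, at 154, 233 and 136 CPM in CDH16KO-AngII and at 209, 233 and 211 CPM in GRPR-AngII. Its groups overlapped, with CDH16KO-AngII library 2 inside the AngII range, and its log2 fold change against AngII was −0.41 (SE 0.21, edgeR adjusted p = 0.623). It was −0.25 without AngII library 2 and −0.67 without CDH16KO-AngII library 2. The ratio of Gclc to Gclm in FPKM was 1.55, 0.968 and 1.97 in the CDH16KO-AngII libraries. It was 1.34, 1.72 and 1.88 in AngII and 1.30, 1.86 and 1.53 in GRPR-AngII, so the ratio varied as much within groups as between them. Exons of Gm17494 on the opposite strand cover 4.71% of the Gclm exon bases, and those of the pseudogene Gm6061 on the same strand 3.88%.

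G6pdx (ENSMUSG00000031400, chrX:74409483-74429194, − strand), the enzyme that opens the oxidative pentose phosphate pathway and supplies NADPH, varied little. Its means were 33.8 ± 3.61 CPM in AngII, 27.8 ± 3.35 CPM in CDH16KO-AngII and 28.9 ± 3.37 CPM in GRPR-AngII (SD, n = 3), and all groups overlapped. The log2 fold changes against AngII were −0.28 in CDH16KO-AngII and −0.22 in GRPR-AngII (SE 0.15 each, edgeR adjusted p = 0.623 and 0.758), and the latter was −0.13 without GRPR-AngII library 1. Ikbkg, on the opposite strand, shares 13.6% of the exon bases of G6pdx, and the reads there cannot be told apart without strand.

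Hmox1 (ENSMUSG00000005413, chr8:75093621-75100589, + strand), the inducible heme oxygenase, also answers to heme and to other transcription factors. It stood at 28.0, 34.6 and 28.4 CPM in AngII, at 24.5, 20.2 and 11.96 CPM in CDH16KO-AngII and at 24.0, 78.8 and 29.0 CPM in GRPR-AngII. All CDH16KO-AngII libraries were below all AngII libraries, and GRPR-AngII library 2 stood far above the other 8. The log2 fold change was −0.68 in CDH16KO-AngII against AngII (SE 0.41, edgeR adjusted p = 0.658) and 0.54 in GRPR-AngII against AngII (SE 0.41, edgeR adjusted p = 0.785). Without CDH16KO-AngII library 3 the first was −0.44, and without GRPR-AngII library 2 the latter became −0.19. That library also had the highest summed level of 5 erythroid markers, 1849 CPM, against 140 and 1567 CPM in the other GRPR-AngII libraries, 80.4 to 1240 CPM in AngII and 516 to 734 CPM in CDH16KO-AngII. Its macrophage marker sum was 129 CPM, within the 98.7 to 186 CPM of the other libraries, with Vsig4 at 0 in 7 of the 9 libraries and Cd163 at 0.07 FPKM or less. The part of blood cells in the Hmox1 value was not tested.

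**Figure D2:**
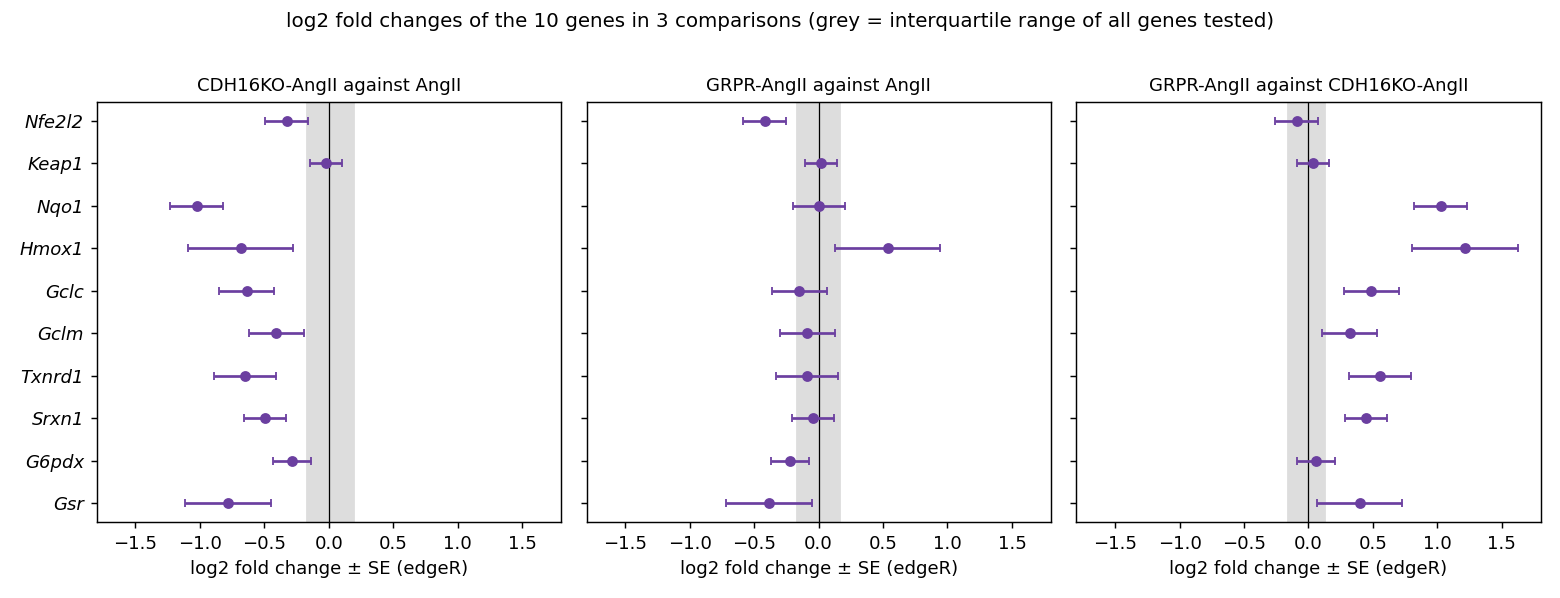
Log2 fold changes of the 10 genes with their SE (x axis, edgeR) in the 3 comparisons. The grey band spans the interquartile range of all 12507 genes tested. In CDH16KO-AngII against AngII all 10 points lie below 0 and 9 lie below the band. In GRPR-AngII against AngII most lie in or near it.

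Read together, all 10 genes had a negative log2 fold change in CDH16KO-AngII against AngII, with a median of −0.57, beside 48.1% negative and a median of 0.01 over all genes tested. The edgeR quasi-likelihood test called 0 of the 10, where it called 21 of 12507 genes (0.168%). An unadjusted p under 0.05 was reached by 5 of the 10 (Nqo1, Gclc, Txnrd1, Srxn1 and Gsr), against 8.45% of all genes. In 5 of the 10 (Nqo1, Hmox1, Gclc, Txnrd1 and Srxn1) every CDH16KO-AngII library was below every AngII library, as in 5.50% of all genes tested. DESeq2, which called 210 of all genes, called 1 of the 10, Nqo1 (adjusted p = 0.000931), and limma on log2(FPKM + 1) called 0.

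In GRPR-AngII against AngII, 7 of the 10 were negative with a median of −0.09, beside 51.0% and −0.01 over all genes. This balance rested on single libraries and on the scaling: without AngII library 2 only 3 of the 10 were negative, with a median of 0.065, and with upper-quartile scaling or limma 9 were. The edgeR test called 0 of the 10 and 0 of all genes (0%). DESeq2, which called 54 of all genes, and limma also called 0 of the 10. Nfe2l2 alone had an unadjusted edgeR p under 0.05, a level reached by 6.74% of all genes tested with edgeR. It was also the 1 gene of the 10 whose GRPR-AngII libraries were all lower than the AngII libraries, as in 7.20% of all genes.

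In GRPR-AngII against CDH16KO-AngII, both of which carry the Cre, 9 of the 10 were positive with a median of 0.42, beside a median of −0.01 and 52.6% negative over all genes. The exception was Nfe2l2. The edgeR test called 0 of the 10, where it called 18 of all genes (0.144%). DESeq2, which called 175 of all genes, called Nqo1 of the 10 (adjusted p = 0.000839), and limma called 0. An unadjusted edgeR p under 0.05 was reached by 5 of the 10 (Nqo1, Hmox1, Gclc, Txnrd1 and Srxn1), against 6.24% of all genes. Without GRPR-AngII library 2 the log2 fold change of Hmox1 was 0.49 in place of 1.22, that of Gclc was 0.28, that of Txnrd1 0.34 and the median of the 10 was 0.28. Without CDH16KO-AngII library 3 the median was 0.26. In 3 of the 10 (Nqo1, Gclc and Srxn1) every GRPR-AngII library was above every CDH16KO-AngII library, as in 4.66% of all genes. The share of all genes with the CDH16KO-AngII libraries below those of both other groups was not computed. The comparisons share libraries, so their directions are not independent of each other, and targets of 1 factor are not separate observations.

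The spread among libraries of a group had a shared part. AngII library 2 held the highest value of 6 genes (Nqo1, Gclc, Gclm, Txnrd1, Srxn1 and Gsr), and CDH16KO-AngII library 3 the lowest value of 7. In CDH16KO-AngII, 9 genes of library 1, 6 of library 2 and 8 of library 3 lay below all AngII libraries. In GRPR-AngII these counts were 5, 1 and 3. The share of all genes that lay below all AngII libraries in a single library was not computed, so these counts are only a description. Gclm and Txnrd1 (r = 0.905), Gclm and Gsr (0.881) and Txnrd1 and Gsr (0.876) followed Nqo1 and Srxn1 as the next most alike pairs, and Keap1 with G6pdx was the least alike (r = −0.25). These are Pearson correlations of log2 CPM over 9 libraries that share groups and depth.

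Other measures were taken of the same libraries. The summed level of 10 proximal tubule markers, all detected, was 11834, 10947 and 10720 CPM in AngII. It was 7970, 10722 and 7875 CPM in CDH16KO-AngII and 10500, 10358 and 12322 CPM in GRPR-AngII. Of these markers 9 of 10 were negative in CDH16KO-AngII against AngII, with a median log2 fold change of −0.19, and none was called. The share of counts from mitochondria-coded genes was 23.4%, 16.1% and 26.4% in the CDH16KO-AngII libraries, against 17.2% to 21.5% in AngII and 19.1% to 24.6% in GRPR-AngII. The highest tubule sum, 12322 CPM, and a mitochondrial share of 24.6% were both those of GRPR-AngII library 3. Within CDH16KO-AngII, libraries 1 and 3 had the lower proximal tubule sums and higher mitochondrial shares, and library 2 had neither. In library 2 the genes Nqo1, Hmox1, Gclc, Txnrd1, Srxn1 and G6pdx stood below every AngII library, Gclm, Gsr and Nfe2l2 were inside the AngII range and Keap1 was above it. The summed level of 6 tubular injury markers was 155 to 185 CPM in AngII, 126 to 139 CPM in CDH16KO-AngII and 121 to 141 CPM in GRPR-AngII, so that both other groups lay below AngII. Of these markers 3 passed the filter, all negative against AngII in both groups and none called, among them Krt8 at −0.36 and −0.40, and Krt20 was at 0 in 3 libraries. Krt8 had the highest level of the 6, 33.8 to 61.4 FPKM, with Krt18 at 7.95 to 16.3 FPKM and Lcn2 at 1.14 to 8.75 FPKM. Havcr1 was at 0.13 to 1.26 FPKM and Vcam1 at 0.55 to 1.32 FPKM, so the sum mostly follows the keratins. The part of tubule content, mitochondrial share or injury in the values of the 10 genes was not tested.

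**Figure D3:**
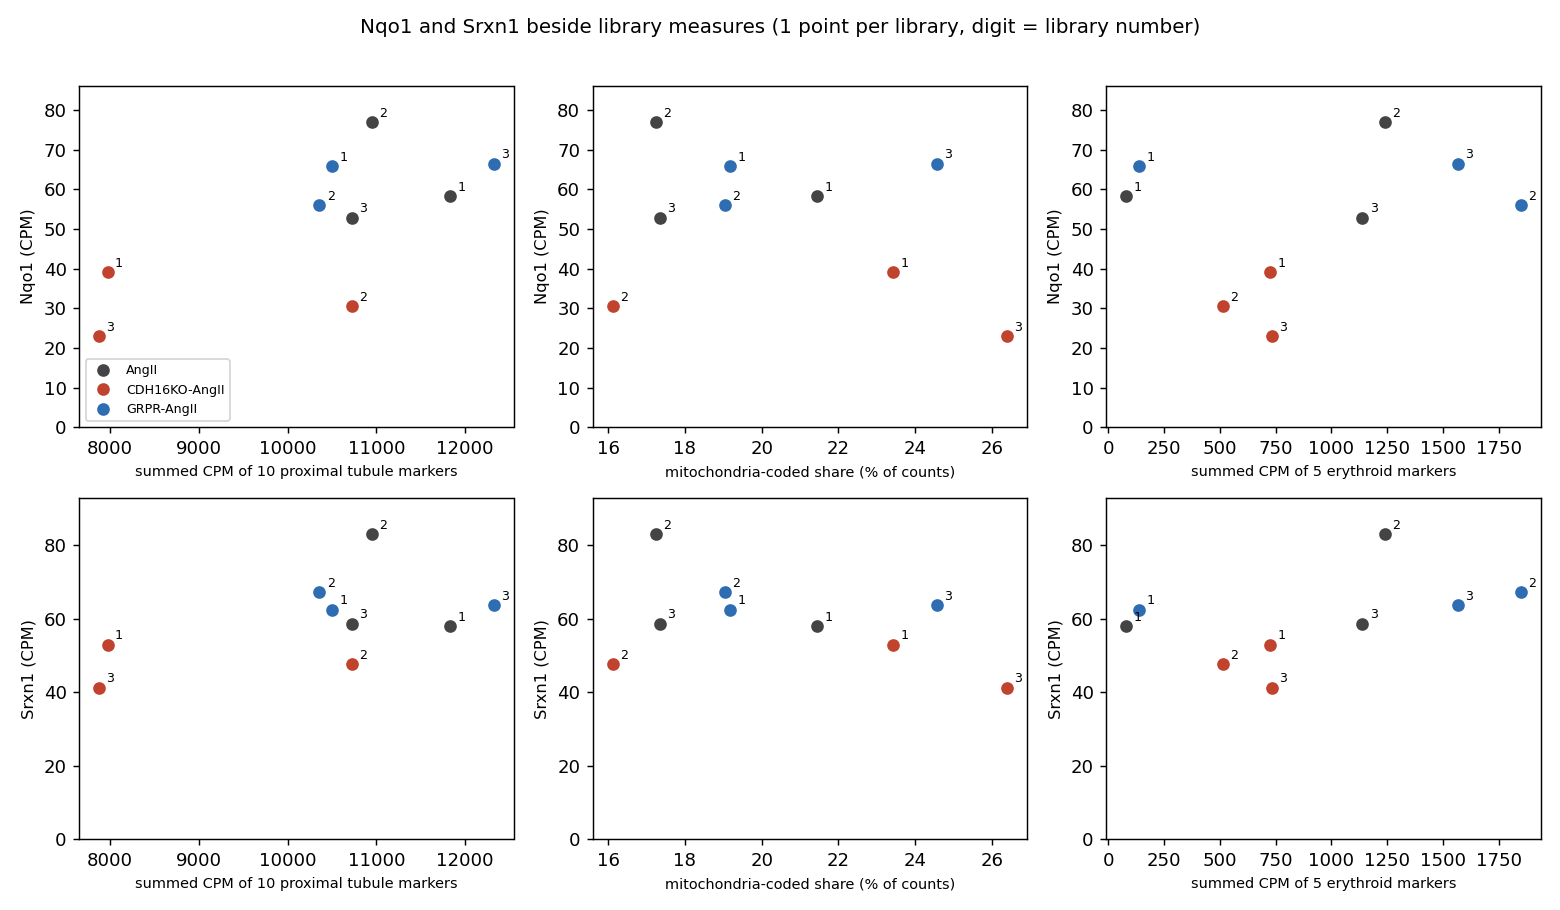
Nqo1 and Srxn1 (CPM, y axes from 0) against 3 measures of each library: the summed CPM of 10 proximal tubule markers, the percent of counts from mitochondria-coded genes and the summed CPM of 5 erythroid markers. CDH16KO-AngII library 2 lies at the low end of the AngII range in tubule markers and below the AngII libraries in both genes.

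The libraries also differed in Nnt, the mitochondrial transhydrogenase that makes NADPH, which the table holds as 2 rows with overlapping coordinates. This gene was singled out after its values were seen. The second row took 93.5%, 95.8% and 0% of the counts of both in the AngII libraries, 34.1%, 44.0% and 0% in CDH16KO-AngII and 0%, 19.8% and 0% in GRPR-AngII. Reads of the 2 rows may be split by the counting. Why libraries of the same group differed in this share was not tested, and neither was its part in the values of the 10 genes.

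**Figure D4:**
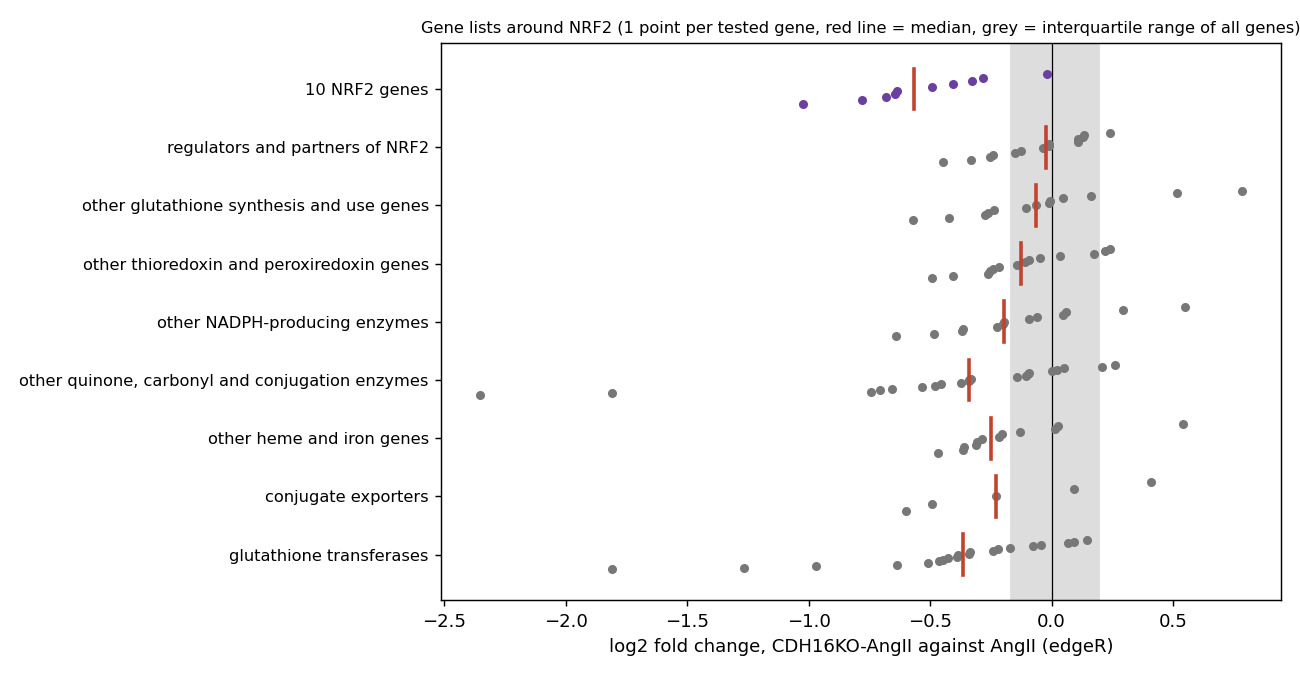
Log2 fold change in CDH16KO-AngII against AngII (x axis, edgeR) of every tested gene of the 10 and of 8 lists around them, with 1 point per gene, a red line at each median and a grey band over the interquartile range of all genes tested. The 10 genes have the lowest median, −0.57, and the glutathione transferases and the quinone, carbonyl and conjugation enzymes follow at −0.36 and −0.34.

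Genes around the 10 were read from 8 lists, and edgeR called 0 of their members in each of the 3 comparisons. Those named below had the smallest p of their list in CDH16KO-AngII against AngII, a choice that favours libraries without overlap. The share of all genes with every CDH16KO-AngII library above every AngII library is not given here. Of the regulators and partners of NRF2, 9 of 14 tested genes were negative in CDH16KO-AngII against AngII, with a median of −0.02. The autophagy receptor Sqstm1, which binds KEAP1 and is itself an NRF2 target, stood at 414 ± 97.8 CPM against 565 ± 75.02 CPM in AngII (SD, n = 3, log2 fold change −0.45, SE 0.19, edgeR adjusted p = 0.579), with no overlap. Cul3, the ligase scaffold, had −0.33 and Gsk3b, a kinase that marks NRF2 for another ligase, −0.15 on the log2 scale, both with overlapping libraries. Of these regulators, 1 of 14 had an unadjusted p under 0.05, beside 8.45% of all genes.

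Of 13 other genes of glutathione synthesis and use, 9 were negative, with a median of −0.06. The extremes of this list were Oplah, the 5-oxoprolinase that recycles glutamate, and the glutaredoxin Glrx. Oplah stood at 90.3 ± 8.80 CPM against 134 ± 14.1 CPM in AngII and 136 ± 6.63 CPM in GRPR-AngII (log2 fold change against AngII −0.57, SE 0.13, edgeR adjusted p = 0.186). Glrx went the other way, at 59.3 ± 16.0 CPM against 34.4 ± 4.40 and 32.6 ± 3.07 CPM (0.78, SE 0.19, edgeR adjusted p = 0.204). For both, the CDH16KO-AngII libraries were separate from the 6 others, a pattern whose share over all genes was not computed. Ggct, the gamma-glutamylcyclotransferase, had 0.51 with overlap.

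The other thioredoxin and peroxiredoxin genes had 10 of 14 negative and a median of −0.13, and none reached an unadjusted p under 0.05. The smallest p belonged to Prdx3, the mitochondrial peroxiredoxin, at −0.49 (SE 0.26), the thioredoxin inhibitor Txnip at −0.40 (SE 0.26) and Txnrd3 at −0.26 (SE 0.17), all with overlapping libraries. The list headed other NADPH-producing enzymes also held pentose phosphate enzymes and NAD kinases that make no NADPH, Tkt among them. Of its 13 tested genes 9 were negative, with a median of −0.19. Tkt, the transketolase, stood at 210 ± 16.1 CPM against 271 ± 8.76 CPM in AngII (log2 fold change −0.37, SE 0.12, edgeR adjusted p = 0.436), and Pgd, which follows G6pdx in the pathway, had −0.37 (SE 0.17). Me3, a mitochondrial malic enzyme, was at 55.3 ± 12.9 CPM against 37.8 ± 7.31 CPM, with all CDH16KO-AngII libraries above all AngII libraries (log2 fold change 0.55, edgeR adjusted p = 0.533).

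The other quinone, carbonyl and conjugation enzymes had 16 of 21 negative and a median of −0.34. Cyp2a5, a cytochrome P450 known to respond to NRF2, stood at 207, 263 and 136 CPM in AngII, at 88.5, 45.5 and 39.1 CPM in CDH16KO-AngII and at 147, 49.8 and 153 CPM in GRPR-AngII. Its CDH16KO-AngII libraries were below all AngII libraries and overlapped GRPR-AngII (log2 fold change against AngII −1.81, SE 0.44, edgeR adjusted p = 0.212). Ugdh, which makes UDP-glucuronate, had −0.66 (SE 0.19, edgeR adjusted p = 0.293) and the fatty aldehyde dehydrogenase Aldh3a2 −0.70 (SE 0.22, edgeR adjusted p = 0.382), both with no overlap. Of the 12 other heme and iron genes 9 were negative, with a median of −0.25 and none at an unadjusted p under 0.05. Slc40a1, the iron exporter ferroportin, had −0.36, Alas1, the first enzyme of heme synthesis, −0.47 and the ferroxidase Cp 0.54 on the log2 scale. Of the 5 conjugate exporters tested 3 were negative, and Abcc2, the apical exporter of glutathione conjugates, stood at 193 ± 21.9 CPM against 292 ± 62.5 CPM (log2 fold change −0.60, SE 0.19, edgeR adjusted p = 0.412). Abcc4 had −0.49 and Abcc5 0.41.

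The glutathione transferases, which join glutathione to electrophiles, had 17 of 20 negative, a median of −0.36 and 8 at an unadjusted p under 0.05, beside 48.1% negative, a median of 0.01 and 8.45% over all genes. Gsta1 stood at 4.14 ± 1.70 CPM in CDH16KO-AngII against 14.5 ± 1.68 CPM in AngII (log2 fold change −1.81, SE 0.32, edgeR adjusted p = 0.0857), Gsta2 had −0.97 (edgeR adjusted p = 0.215) and Mgst1 −0.64 (edgeR adjusted p = 0.267). These had the smallest p of the list, and others lay nearer to no change, such as Gstm1 at −0.04, Gstm2 at 0.07 and Mgst3 at 0.15. Gsta1 differed from Nqo1 in the other Cre group, where it stood at 5.78 ± 1.97 CPM, below all AngII libraries (log2 fold change −1.32, SE 0.32, edgeR adjusted p = 0.602). The alpha transferases are close paralogs, between which the counting could split reads.

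In GRPR-AngII against AngII the medians of the 8 lists lay between −0.14, for the quinone, carbonyl and conjugation enzymes, and 0.10, for the thioredoxin and peroxiredoxin genes. In GRPR-AngII against CDH16KO-AngII they lay between 0.00, for the regulators, and 0.23, for the exporters, with 16 of 20 glutathione transferases and 12 of 14 thioredoxin and peroxiredoxin genes positive. Those medians stand beside −0.01 over all genes in either comparison.

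Among 11024 tested genes, leaving out predicted (Gm) and Rik names, the 5 most like Nfe2l2 over the 9 libraries by Pearson correlation of log2(CPM + 0.5) were Wbp11 (r = 0.971), Tbl1x (0.970), Dcaf6 (0.956), Lmo4 (0.948) and Ccdc71l (0.946). None of its 8 targets was among them, and their r with Nfe2l2 was 0.65 for G6pdx, 0.55 for Gsr, 0.47 for Gclm, 0.40 for Txnrd1, 0.35 for Gclc, 0.16 for Srxn1, 0.09 for Nqo1 and 0.06 for Hmox1. Wbp11 had log2 fold changes of −0.29 in CDH16KO-AngII and −0.31 in GRPR-AngII against AngII, both with non-overlapping libraries and not called. The 5 most like Nqo1 were Slc25a48 (0.969), Crot (0.966), Pxmp4 (0.956), Cbs (0.943) and Lrrc28 (0.935), and Srxn1 was the 7th of all tested genes. Crot, the peroxisomal carnitine octanoyltransferase, stood at 159 ± 19.5 CPM in CDH16KO-AngII against 247 ± 35.9 CPM in AngII and 254 ± 33.4 CPM in GRPR-AngII. Pxmp4, a peroxisomal membrane protein, stood at 89.7 ± 9.56 CPM against 126 ± 3.53 and 125 ± 12.2 CPM. Both were below all other libraries in CDH16KO-AngII and neither was called (edgeR adjusted p = 0.250 and 0.277 against AngII). The points share libraries and depth, and these genes were taken as the highest of many correlations.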

How the data were processed

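The deposited table holds, per the file headers, a count and an FPKM value for each gene and library. FPKM, as the authors deposited it, is rounded to 2 decimals, and for 98.6% of 9693 genes with over 500 counts in AngII library 1 it fitted the union of exons as gene length within 2%. The authors deposited whole-number counts in which 4 is commoner than 3 and 5, so they were treated like expected counts, estimates rounded by the authors. Qiagen RNeasy RNA and a SMARTER mRNA kit were used, per the labels' protocols. The builds GRCm38 and mm10 are named in the submitters' processing notes, while for the aligner, counter and strand setting nothing is given in the sources used here. The CDH16KO columns are spelled CHD16KO in the header and were matched to the titles by the rest of the name.

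Counts were tested by quasi-likelihood in edgeR 4.0.16 (R 4.3.3), with TMM scaling and all 9 libraries in 1 fit. The 12507 genes that reached 1 FPKM in 3 or more libraries were tested, adjusted by Benjamini-Hochberg over all of them, with calls at an adjusted p under 0.05. Sting1 was fitted with the minimum lowered to 0.1. The fit was tested on simulated data. DESeq2 1.42.0 and limma 3.58.1 on log2(FPKM + 1) were alternatives. A group of 3 libraries against 3 cannot give an exact permutation p under 0.1, and none was used.

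Genes named were the 10, up to 3 of smallest p per list in CDH16KO-AngII against AngII and the 5 most alike to Nfe2l2 and to Nqo1. The 10 genes, the lists and the marker lists were chosen with earlier results of these data known. Gpx2, Ugt2b35, Gsta13 and Cyp11b1 had no row under their symbols. Overlapping genes were read from GENCODE M21, which gave 9 of the 10 the deposited start and end. Replicates differed by a chi-square of 74.2 to 366 per gene, so no library was a copy of another. Shared sequence was searched with BLAST+ 2.17.0 and matplotlib 3.10.9 (Python 3.11.15) drew the figures.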

Additional observations from a re-analysis of the deposited data

How the results depend on the processing

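With 3 libraries a group, 1 library decides much of what passes the threshold. The count of all genes called was 21, 0 and 18 in CDH16KO-AngII against AngII, GRPR-AngII against AngII and GRPR-AngII against CDH16KO-AngII. DESeq2 gave 210, 54 and 175, and an FPKM of at least 5 gave 3, 0 and 5. In GRPR-AngII against CDH16KO-AngII no FPKM filter gave 41 and a fit of only those groups gave 9. Leaving out 1 library gave 0 to 42, 0 to 2 and 0 to 50, with 0 in the first comparison without AngII library 1 and 0 in the last without GRPR-AngII library 1. Of the 10 NRF2 genes, DESeq2 called 1 in each comparison with CDH16KO-AngII, and leaving out 1 library gave 0 to 1. That gene was Nqo1, and the fit was the one without CDH16KO-AngII library 1. In GRPR-AngII against AngII none of the 10 was called under any alternative run.

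In CDH16KO-AngII against AngII, 9 or 10 of the 10 genes were negative in every setting, with medians from −0.65 to −0.39. The exception was Keap1, at 0.0044 to 0.038 in the fits without AngII libraries 2 or 3 or CDH16KO-AngII library 3, and its range over left-out libraries was −0.095 to 0.038. In GRPR-AngII against AngII, Keap1 was −0.000854 with upper-quartile scaling, and −0.046 and −0.052 with limma on log2(FPKM + 1) and log2(FPKM + 0.1). Nqo1 was −0.011, −0.054 and −0.055 in the same settings and −0.0088 with an FPKM of at least 5. Over left-out libraries in that comparison Keap1 ranged from −0.045 to 0.063, Nqo1 from −0.11 to 0.18, Hmox1 from −0.19 to 0.83, Gclc from −0.35 to 0.059, Gclm from −0.22 to 0.071, Txnrd1 from −0.31 to 0.13 and Srxn1 from −0.14 to 0.14. In GRPR-AngII against CDH16KO-AngII, Keap1 ranged from −0.021 to 0.11, G6pdx from −0.018 to 0.15 and Nfe2l2 from −0.21 to 0.0069. The causes were not tested.

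The titles number the libraries 1 to 3 in each group. Of 9 same-numbered pairs 6 had a correlation of their deviations over 0.1 (−0.12 to 0.30), which leaves 3 pairs, all numbered 1, at or below it, and the numbers were not taken as pairs. In 13 of 18 comparisons a library correlated best with its own number, which is a hint from the data and not from the labels. With the replicate number as a block, 26, 0 and 13 genes were called, none of the 10 among them. The 10 genes kept their 10 negative values in CDH16KO-AngII against AngII, with a median of −0.54, and Nqo1 had −1.04 (edgeR adjusted p = 0.0947).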
